A study of Mus musculus with 46 samples.

Results

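Actb and Actg1 encode the cytoplasmic beta and gamma actins. They were measured here with 5 further genes of the actin cytoskeleton, Acta2, Cfl1, Pfn1, Srf and Vcl. A probe set was taken when the platform annotation gave it 1 gene symbol and that symbol was one of these 7 genes. This gave 8 of the 12488 probe sets on the array, for 6 of the 7 genes, among 8251 genes named on it. Actb and Vcl had 2 probe sets each, of which the brighter one leads. Actg1, Acta2, Cfl1 and Pfn1 had 1 each, and no probe set carried Srf alone. The 6 beta-actin control probe sets that the manufacturer places on every array were set beside them. The genes were chosen by measured values of these arrays, the low Actb signal after liver resection against unoperated and sham liver. Their change from unoperated liver after resection, their difference between resection and sham surgery at 1 h and 2 h, and the beta-actin controls are therefore described without a test. The remaining tests between operations share arrays with that choice, so p-values of Actb in them are not independent of it.

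All RNA came from the liver of male CB6F1 hybrid mice. Young mice were 5 to 6 months old and old mice 25 to 27 months, and the ages came from different suppliers, so age and supplier cannot be told apart. The 2 unoperated groups (0 h, 1 of each age) were compared with liver taken 0.5, 1, 2 or 4 h after partial hepatectomy (PH, removal of 70% of the liver) or after sham surgery. The operated mice received injected avertin and inhaled isoflurane. Unoperated and PH groups held 3 arrays and sham groups 2, which makes 46 arrays in 18 groups of age, operation and time. The labels do not say that the replicate arrays of a group are separate animals, so p-values here reflect only how far those arrays spread, which may be technical. Each value is a log2 expression value made by RMA, and a difference of 1 is a doubling of signal. In whole liver, fewer cells of a type and less RNA per cell cannot be told apart. Differences are means of both ages ± the standard error from limma, and a probe set was called at an adjusted p under 0.05 over the 12422 probe sets tested. Where sets of arrays are said not to overlap, how many of all probe sets did the same was not counted.

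Actin monomers assemble into filaments that carry cell shape, adhesion and the bile canaliculi of hepatocytes. Profilin (Pfn1) delivers monomers to growing filaments, cofilin (Cfl1) severs old ones, and vinculin (Vcl) anchors filaments at adhesions. Srf encodes the serum response factor, which binds the CArG box and acts with the actin-sensing MRTF coactivators at cytoskeletal genes and with ternary complex factors at immediate early genes. Acta2 encodes smooth muscle actin, which in liver marks vessel walls and activated stellate cells. Levels of different probe sets are not set against each other here, since each has its own probes. Alb, the albumin gene that defines hepatocytes, had a mean of 13.87 at 0 h, so the defining marker of liver was present at a high level.

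Promoter windows are shown for Actg1 and Vcl, the members that were called higher after PH than after sham and that hold a CArG box. They are from RefSeq (GRCm38.p6), run from 250 bases before to 50 bases after the start used by that sequence table, on the gene's strand, and have the CArG box in capitals. The Actg1 window is chr11:120348446-120348745, minus strand, and the Vcl window is chr14:20929148-20929447, plus strand.
Actg1: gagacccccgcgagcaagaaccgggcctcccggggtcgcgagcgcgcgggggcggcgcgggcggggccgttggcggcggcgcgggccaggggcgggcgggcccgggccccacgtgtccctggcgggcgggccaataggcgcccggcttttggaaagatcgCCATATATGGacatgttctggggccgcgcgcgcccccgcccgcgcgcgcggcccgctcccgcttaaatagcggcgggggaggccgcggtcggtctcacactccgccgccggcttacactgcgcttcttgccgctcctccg
Vcl: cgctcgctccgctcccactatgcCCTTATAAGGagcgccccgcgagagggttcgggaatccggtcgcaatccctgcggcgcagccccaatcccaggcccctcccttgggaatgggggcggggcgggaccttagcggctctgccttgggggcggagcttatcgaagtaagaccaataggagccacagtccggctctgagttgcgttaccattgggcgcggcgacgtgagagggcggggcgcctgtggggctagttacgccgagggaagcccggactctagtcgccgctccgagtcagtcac
The Actg1 box begins 90 bases before that start and the Vcl box 227 bases before it. For Actg1 that start is the end of the gene span given below, while for Vcl and Pfn1 it lies inside the span. The motif, the CArG box, was searched on the printed strand as CC, then 6 letters that are A or T, then GG. That form is its own reverse complement, so a match on either strand is found, though the letters within it can differ between strands. It was found in 3 of the 6 members with a window: Actg1, Vcl and Srf, which has 2 boxes, at 82 and 62 bases before its start in the table. No match lay in the windows of Acta2, Cfl1 or Pfn1, which says only that these letters are not in those windows. Of 32851 windows of this length, 535 (1.63%) held a CArG box. A match is a description of the sequence. The genes lie at chr5:142903115-142907976 (Actb), chr11:120345687-120348495 (Actg1), chr14:20929383-21033676 (Vcl) and chr11:70651844-70656799 (Pfn1) in the same build.

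The signal of Actb was lower and that of Actg1 higher after PH than at 0 h. At 0 h the leading Actb probe set read 8.94, 9.86 and 8.84 in young and 9.09, 9.62 and 9.91 in old liver. At 1 h after PH it read 8.0, 6.80 and 6.86 in young and 8.46, 7.29 and 7.21 in old liver. At 2 h after PH it read 6.80, 6.33 and 8.08 in young and 6.78, 7.18 and 6.28 in old liver. All 12 of these PH arrays lay below all 6 arrays of unoperated liver. At 4 h the values were 8.90, 9.08 and 8.20 in young and 7.68, 8.88 and 7.45 in old liver, which overlapped 0 h. At 0.5 h they were 9.13, 9.82 and 9.0 in young and 9.38, 7.87 and 6.51 in old liver. The old arrays at 0.5 h thus spread over nearly the whole range of the study.

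The differences of Actb from 0 h were -0.76, -1.94, -2.47 and -1.01 (each ± 0.36 SE) at 0.5, 1, 2 and 4 h, or 1.69-, 3.84-, 5.54- and 2.02-fold lower. The lowest mean was therefore at 2 h, but the arrays at 1 h and 2 h overlapped. With the spike-in covariate described below, the differences at 2 h and 4 h were about equal (-1.22 and -1.27). The second Actb probe set gave -1.34, -2.53, -3.03 and -1.04 (± 0.46). It ran from 8.13 to 9.79 (median 9.28) at 0 h and from 5.40 to 7.06 (median 6.09) at 2 h after PH, again without overlap. Over the 18 group means the 2 Actb probe sets correlated with r = 0.936, as a description, since both read the same RNA on the same arrays. Their identifiers carry suffixes (_f_at and _s_at) that the manufacturer used for probe sets whose probes can match related sequences, and actin transcripts are closely alike. How much of either signal came from other actin transcripts was not tested. The share of all probe sets called in PH minus 0 h was 0.0886%, 3.72%, 12.8% and 23.5% at 0.5, 1, 2 and 4 h.

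**Figure D1:**
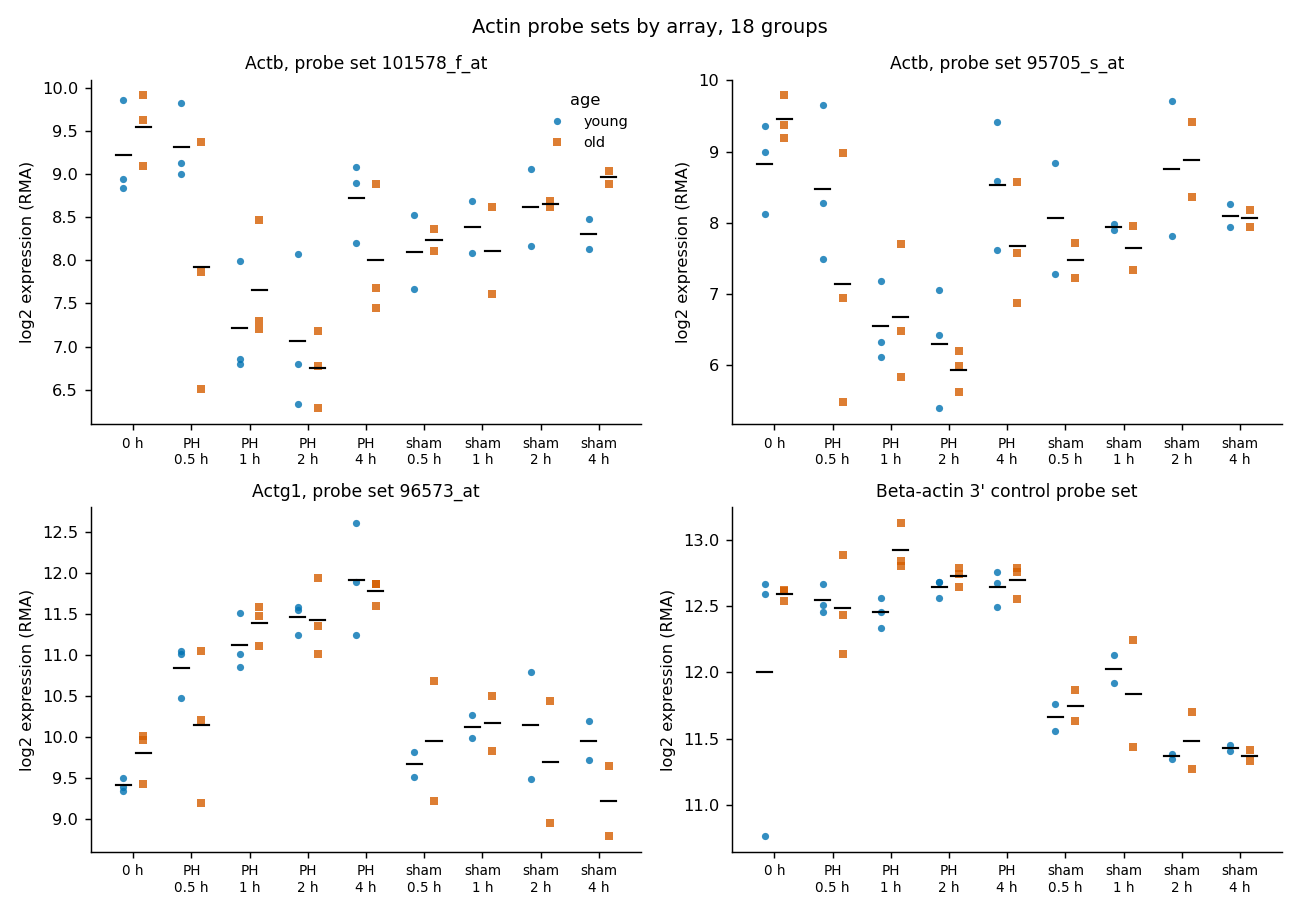
Log2 expression on each of the 46 arrays, by operation and time, for both Actb probe sets, Actg1 and the beta-actin 3′ control; points are arrays coloured by age and bars are group means. Group means of Actb were lowest at 2 h after PH (arrays 6.28 to 8.08) and those of Actg1 highest at 4 h after PH (arrays 11.25 to 12.61). The control was lowest in sham arrays (11.27 to 12.24) apart from 1 young 0 h array at 10.76.

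Actg1 went the other way and continued to 4 h. At 0 h it read 9.34, 9.39 and 9.5 in young and 9.96, 10.01 and 9.43 in old liver. At 1 h after PH it read 11.51, 11.02 and 10.85 in young and 11.47, 11.10 and 11.59 in old liver. At 4 h it read 12.61, 11.25 and 11.89 in young and 11.60, 11.86 and 11.87 in old liver. No PH array at 1, 2 or 4 h overlapped 0 h, and the 2 h arrays lay between 11.01 and 11.93. At 0.5 h the young arrays (11.01, 10.47 and 11.05) were all above 0 h, while the old arrays (10.20, 9.20 and 11.04) ran from below the lowest to above the highest 0 h array. The differences from 0 h were 0.89, 1.65, 1.84 and 2.24 (each ± 0.28) at 0.5, 1, 2 and 4 h, or 1.85-, 3.14-, 3.58- and 4.72-fold higher. Over the 18 group means Actb and Actg1 correlated with r = -0.541. Both genes share every array and the same 0 h groups, so this is a description.

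By age, Actb in young liver differed from 0 h by 0.10, -2.0, -2.15 and -0.49 at 0.5, 1, 2 and 4 h, and in old liver by -1.62, -1.89, -2.79 and -1.54. Actg1 differed by 1.43, 1.72, 2.05 and 2.51 in young and by 0.35, 1.59, 1.63 and 1.97 in old liver. The ages were furthest apart at 0.5 h for both genes. That difference between ages did not pass for Actb (-1.73 ± 0.71, adjusted p = 0.573 by limma), and of all probe sets 0.00805% passed in this comparison. Over the 4 times together, limma's F test of the age difference in the PH change called 0 of the 8 member probe sets (0 at an unadjusted p under 0.05), against 0% of all probe sets. The lowest adjusted p among the members was 0.720.

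Ordered by group mean, Actb ran from 6.75 ± 0.45 (SD, n = 3) in old liver 2 h after PH to 9.54 ± 0.42 (n = 3) in unoperated old liver. The 4 lowest groups were the PH groups at 2 h and 1 h, the sham groups lay in the middle, and both 0 h groups were among the highest 3. None of the 17 gaps between neighbouring groups exceeded the larger of their SDs, so the order between neighbours is not resolved. Actg1 ran from 9.22 ± 0.60 (n = 2) in old liver 4 h after sham to 11.91 ± 0.68 (n = 3) in young liver 4 h after PH. Its highest 7 groups were all PH groups. The widest gap, 0.68, separated old sham at 1 h (10.16) from young PH at 0.5 h (10.84). It was 1 of 3 gaps among 17 that exceeded the larger SD. The other two lay between young 0 h and young sham at 0.5 h, and between young PH at 2 h and old PH at 4 h.

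The beta-actin control probe sets, which target the same gene as Actb, gave no such low values after PH where they read the transcript strand. These 3 cover the 3′ end, middle and 5′ end of the transcript. On the 3′ control the 0 h arrays read 12.54 to 12.67 apart from young 0 h replicate 3 at 10.76. The 24 PH arrays ran from 12.14 to 13.13 (median 12.67). The 16 sham arrays ran from 11.27 to 12.24 (median 11.50), below nearly all other arrays. The PH minus 0 h differences of the 3′ control were 0.22, 0.39, 0.39 and 0.37 (± 0.20) at 0.5, 1, 2 and 4 h, where Actb gave -0.76, -1.94, -2.47 and -1.01. The middle control gave 0.08, 0.28, 0.35 and 0.33 (± 0.25) and the 5′ control 0.02, 0.38, 0.47 and 0.42 (± 0.25). Young 0 h replicate 3 set much of these values. Without it and old PH 0.5 h replicate 3, the 3′ control gave -0.19, 0.08, 0.07 and 0.06, the middle control -0.44, -0.09, -0.02 and -0.03 and the 5′ control -0.53, 0.04, 0.13 and 0.08. The Gapdh 3′ control, another housekeeping control, gave -0.01, -0.02, 0.13 and -0.05 (± 0.06). The other 3 beta-actin controls carry the suffix _st, which marks the opposite strand, and were lower at 1 and 2 h. They differed from 0 h by -0.58, -0.29 and -0.09 at 1 h and by -0.60, -0.24 and -0.18 at 2 h (3′, middle and 5′). The opposite-strand Gapdh controls did so too, by -0.32, -0.29 and -0.26 at 1 h and by -0.35, -0.27 and -0.19 at 2 h.

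After sham surgery the order was different again. The 3′, middle and 5′ controls differed from 0 h by -0.60, -0.76 and -0.63 at 0.5 h and by -0.90, -1.16 and -1.03 at 4 h. Without the same arrays the 3′ control gave -0.91 at 0.5 h and -1.21 at 4 h. The Actb differences were also below 0 at every sham time, and those of Actg1 lay between -0.02 and 0.54. At 1 and 2 h after PH the Actb probe sets were thus far below 0 h and the 3′ control was not, while after sham both were below it. Over the 18 group means Actb and the 3′ control correlated with r = -0.340, as a description.

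**Figure D2:**
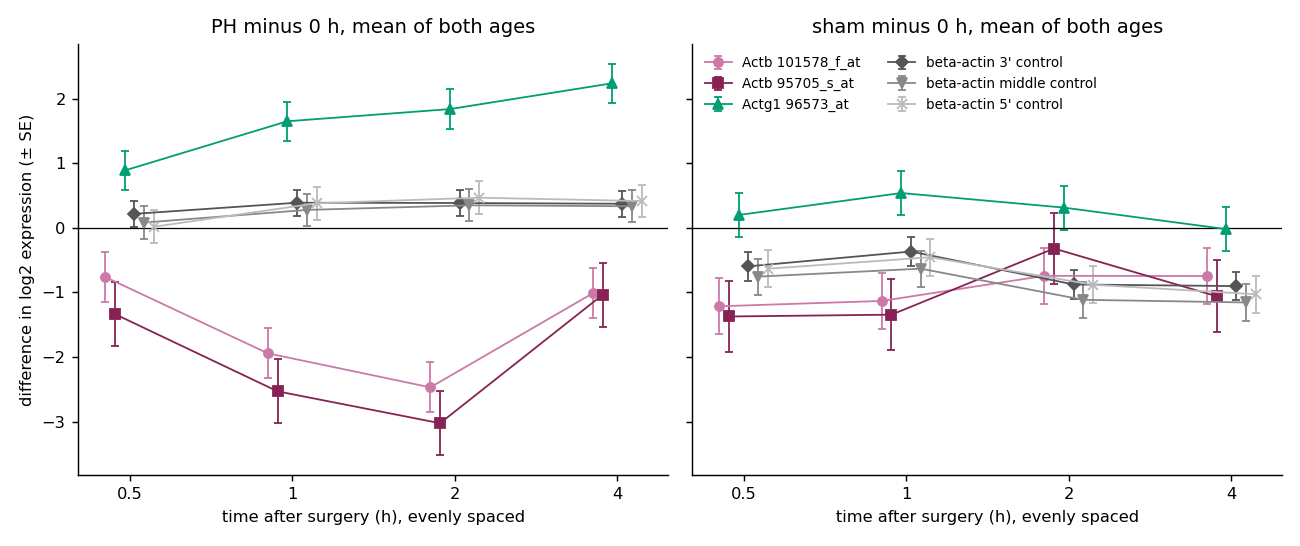
Log2 difference from 0 h (± standard error) at 0.5, 1, 2 and 4 h after PH and after sham surgery, mean of both ages, for both Actb probe sets, Actg1 and the beta-actin 3′, middle and 5′ controls. At 2 h after PH Actb stood at -2.47 and -3.03, Actg1 at 1.84 and the 3′ control at 0.39.

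The bacterial spike-in transcripts, which carry no mouse RNA, were also low at 1 h and 2 h after PH. Their mean over 9 probe sets was 9.74 ± 0.70 (SD, n = 6) at 0 h, 9.61 ± 1.01 (n = 6) at 0.5 h, 8.33 ± 0.46 (n = 12) at 1 and 2 h and 10.03 ± 0.53 (n = 6) at 4 h after PH. It was 9.42 ± 0.11 (n = 16) in the sham arrays. The lowest of all 46 was old PH 0.5 h replicate 3 (7.68), which also had the lowest Actb of its group, 6.51. With the spike-in mean as a covariate the Actb differences from 0 h became -0.64, -0.66, -1.22 and -1.27 at 0.5, 1, 2 and 4 h, and those of the second probe set -1.20, -1.03, -1.56 and -1.34. Those of Actg1 became 0.85, 1.24, 1.44 and 2.32. The part of the spike-in signal in the Actb differences was not tested. Without young 0 h replicate 3 and old PH 0.5 h replicate 3, the arrays that stood apart, the Actb differences were -0.50, -2.04, -2.56 and -1.11 and those of Actg1 0.69, 1.67, 1.86 and 2.26.

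Variation between arrays of the same group was not used to choose the genes, so it was tested. Deviations from the group mean were correlated over 46 arrays for 12 pairs of measures, with 100000 two-sided permutations within groups and Benjamini-Hochberg adjustment over the 12. Actb followed the spike-in mean (r = 0.767, p = 3e-05, adjusted 0.00018; Spearman's ρ = 0.710, p = 5e-05, adjusted 0.0003). Without the 2 arrays farthest from the median spike-in deviation r was 0.704. The relation was present in the 30 arrays of 0 h and PH (r = 0.830) and not seen in the 16 sham arrays (r = -0.168), whose spike-in means hardly varied. The second Actb probe set gave r = 0.703 and Spearman's ρ = 0.617 (adjusted permutation p = 0.00136 and 0.00148), with r = 0.813 in 0 h and PH arrays and -0.531 in sham arrays. The Actb probe sets followed each other (r = 0.882, Spearman's ρ = 0.855, permutation p = 1e-05, the smallest that these permutations can give, adjusted 0.00012).

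Actg1 did not pass with the spike-in mean (r = -0.316, Spearman's ρ = -0.185, adjusted permutation p = 0.413 and 0.529). Its r was -0.452 in the 30 arrays of 0 h and PH and 0.0722 in the 16 sham arrays. Within groups Actb and Actg1 gave r = -0.112 and Spearman's ρ = -0.0638 (adjusted permutation p = 0.808 and 0.721), so arrays low in Actb were not detectably high in Actg1. Actb and the 3′ control gave r = -0.127 and Spearman's ρ = -0.280 (adjusted permutation p = 0.802 and 0.348). Actg1 and the 3′ control gave r = 0.284 and Spearman's ρ = 0.431 (adjusted permutation p = 0.0904 and 0.0717), with r = 0.498 without the 2 arrays farthest out. Actb with Pfn1, Cfl1, Vcl, Acta2 or the 3′ minus 5′ difference of the Gapdh control lay between r = -0.257 and r = -0.0773, and none of these 5 passed.

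**Figure D3:**
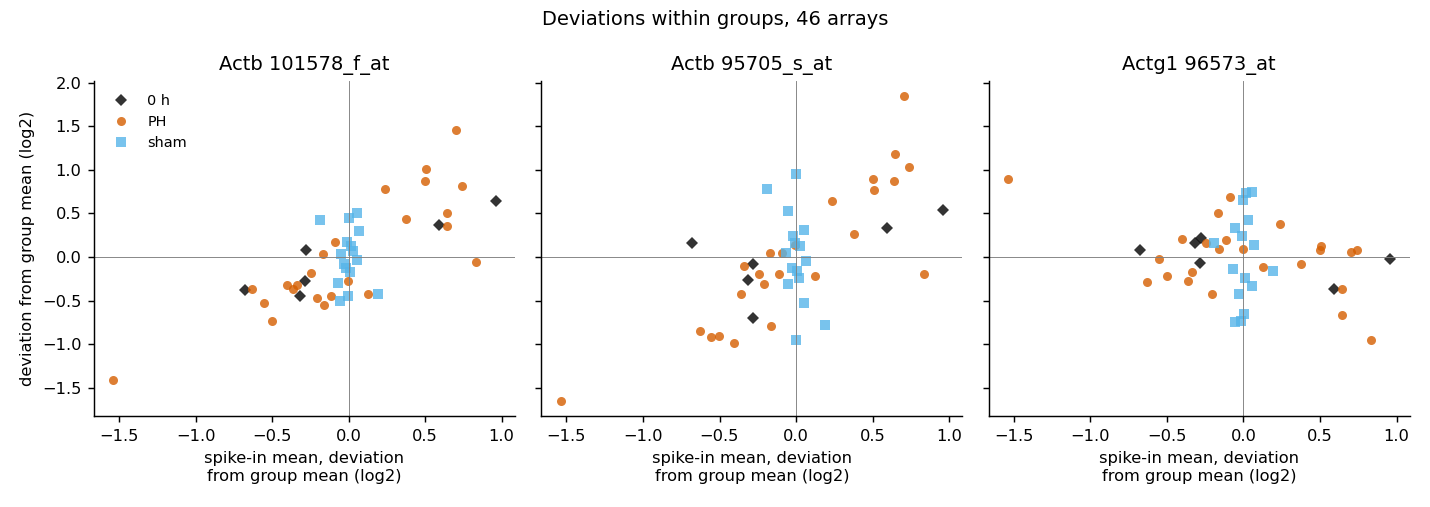
Deviation of both Actb probe sets and Actg1 from their group mean (log2, vertical) against the deviation of the bacterial spike-in mean (log2, horizontal); each point is 1 of 46 arrays. Actb rises with the spike-in deviation (r = 0.767 and 0.703) and Actg1 does not (r = -0.316).

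Sham surgery was compared with 0 h, which asks what follows the operation without resection. These comparisons share the 0 h and sham arrays with the choice of the genes, so their p-values for Actb are not independent of it. The leading Actb probe set fell by 1.21 ± 0.40 at 0.5 h (adjusted p = 0.0272 by limma) and by 1.13 ± 0.40 at 1 h (adjusted p = 0.0273). At 2 h and 4 h it was at -0.74 and -0.75 (adjusted p = 0.159 and 0.157). The 16 sham arrays ran from 7.61 to 9.06 (median 8.50) and overlapped 0 h (8.84 to 9.91). These calls depended on single arrays. Of 10 fits that each left out 1 array, the 0.5 h call was lost in 5: without young 0 h replicate 2 (-1.05, adjusted p = 0.0811), old 0 h replicate 3 (-1.12, 0.0547), young sham replicate 1 (-1.0, 0.153), old sham replicate 1 (-1.28, 0.0519) or old sham replicate 2 (-1.15, 0.0910). The 1 h call was lost in 4, without young 0 h replicate 2 (-0.97, 0.0790), old 0 h replicate 3 (-1.04, 0.0562), young sham replicate 1 (-0.98, 0.119) or old sham replicate 2 (-0.88, 0.169). The second probe set gave -1.37 ± 0.51 at 0.5 h (adjusted p = 0.0502), -1.34 at 1 h (0.0400, kept in 3 of 10 fits with 1 array left out), -0.32 at 2 h (0.670) and -1.06 at 4 h (0.113).

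Actg1 did not pass at any sham time, with differences of 0.20, 0.54, 0.31 and -0.02 (± 0.32; adjusted p = 0.694, 0.187, 0.479 and 0.970 by limma). Its sham arrays ran from 8.79 to 10.79 (median 9.83) and overlapped 0 h. All 8 member probe sets together gave 2, 4, 2 and 2 calls at 0.5, 1, 2 and 4 h, where 22.3%, 34.5%, 30.2% and 31.3% of all probe sets were called. The sham arrays stood apart from the rest as a set: these shares compare with 0.0886% for PH minus 0 h at 0.5 h, while limma's F test over the 4 sham times called 1.41%. That F test called 0 of the 8 members (0 at an unadjusted p under 0.05, lowest adjusted p 0.770). A difference between the sham arrays and the others that did not come from the operation cannot be told apart from it here.

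Profilin was the member with the most even sham difference. Pfn1 read 7.92 to 8.35 (median 8.28) on the 6 arrays at 0 h and 8.39 to 8.70 (median 8.59) on the 16 sham arrays. These ranges did not overlap, and the share of all probe sets so separated was not counted. Pfn1 rose by 0.37, 0.38, 0.37 and 0.30 (± 0.08) at 0.5, 1, 2 and 4 h (adjusted p = 0.000971, 0.000391, 0.000593 and 0.00344 by limma). Of all probe sets 12.9%, 19.9%, 16.4% and 17.0% were called higher at these times. Each call was kept in all 10 fits that left out 1 array. After PH the 24 arrays ran from 7.85 to 8.42 (median 8.28), with differences of 0.04, -0.10, 0.09 and 0.09. PH minus sham was -0.33 ± 0.08 at 0.5 h (adjusted p = 0.00194, kept in all 10 fits), the only member call at that time, and -0.48 and -0.28 at 1 h and 2 h. At 4 h it was -0.21 (adjusted p = 0.0416), with PH arrays at 8.23 to 8.39 and sham arrays at 8.62, 8.52, 8.57 and 8.39. This last call was kept in 3 of 10 fits. It was lost without young PH 4 h replicate 2 or 3 (adjusted p = 0.0506, 0.0931), old PH 4 h replicate 1 or 2 (0.0793, 0.0634), young sham 4 h replicate 1 or 2 (0.144, 0.0601) or old sham 4 h replicate 1 (0.192).

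At 4 h Actg1 and vinculin were higher after PH than after sham. The genes were chosen by low Actb after resection against unoperated and sham liver, so tests on PH and sham arrays are not independent of that choice. Actg1 read 8.79 to 10.19 on the 4 sham arrays (9.71 and 10.19 in young, 8.79 and 9.64 in old liver) and 11.25 to 12.61 on the 6 PH arrays. The difference was 2.26 ± 0.32 (adjusted p = 4.75e-06 by limma), or 4.79-fold, and stayed between 2.05 and 2.47 when single arrays were left out. The 4 h PH arrays serve the comparison with 0 h too. At 0.5 h Actg1 did not pass (0.69, adjusted p = 0.0977). It passed there without old PH 0.5 h replicate 2 (0.93, 0.0238) or old sham 0.5 h replicate 1 (1.06, 0.0229). Actb did not pass at 0.5 h (0.45 and 0.04, adjusted p = 0.414 and 0.967) or at 4 h (-0.27 and 0.02, adjusted p = 0.667 and 0.980). At 1 and 2 h, without a test, PH minus sham was -0.81 and -1.73 for Actb and 1.11 and 1.53 for Actg1. With the spike-in mean as a covariate the Actb values were 0.19 and -0.77, so the sign at 1 h turned. The 4 h value was then -0.76 (adjusted p = 0.0421 by limma), which passed with this covariate and not in the main fit. That p-value too is not independent of the choice of the genes. Of the 8 member probe sets, 1 passed at 0.5 h, where 29.2% of all probe sets did, and 4 passed at 4 h, where 23.5% did.

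At 4 h after PH the leading probe set of vinculin read 7.91, 7.46 and 8.17 in young and 7.59, 8.33 and 8.20 in old liver. At 4 h after sham it read 7.31 and 7.25 in young and 6.79 and 6.82 in old liver. No PH array at any time lay within the range of the 16 sham arrays (6.79 to 7.31), and the share of all probe sets so separated was not counted. The 4 h difference was 0.90 ± 0.15 (adjusted p = 4.24e-05 by limma), or 1.87-fold, and stayed between 0.82 and 1.01 with single arrays left out. The dimmer Vcl probe set read 5.2 to 5.56 after PH and 4.87 to 5.15 after sham at 4 h, a difference of 0.38 ± 0.10 (adjusted p = 0.00547). The vinculin difference had parts on both sides of 0 h: PH minus 0 h was -0.01, 0.29, 0.49 and 0.38 (± 0.13) at 0.5, 1, 2 and 4 h, and sham minus 0 h was -0.29, -0.39, -0.46 and -0.52 (± 0.15; adjusted p = 0.147, 0.0382, 0.0187 and 0.00695). The 4 h sham call was kept in all 10 fits with 1 array left out. The 1 h call was kept in 2 of 10, with adjusted p up to 0.126. The 2 h call was kept in 7 of 10, and lost without young 0 h replicate 2 (0.0561), young sham 2 h replicate 2 (0.112) or old sham 2 h replicate 2 (0.160). The dimmer probe set did not pass after sham at 1, 2 or 4 h (adjusted p = 0.609 at 1 h, 0.338 at 2 h and 0.203 at 4 h) and gave PH minus 0 h differences of -0.10, -0.12, -0.05 and 0.21.

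Smooth muscle actin and cofilin had smaller differences. Acta2 read 4.95 to 5.90 at 0 h, 4.98 to 6.44 after PH and 4.80 to 5.22 after sham. Its sham arrays lay in a narrow band at the low end, and its 4 h PH minus sham difference was 0.55 (adjusted p = 0.0545 by limma), which passed without old PH 4 h replicate 1 (0.63, 0.0346). It also passed with median centring (adjusted p = 0.0495), array weights (0.0458), the spike-in covariate (0.0430), both arrays that stood apart left out (0.0396) and the compared groups alone (0.0284). Markers of stellate cells and smooth muscle, the cells that carry Acta2, had mean levels of 6.46 to 6.67 on the 4 h PH arrays and 6.39 to 6.54 on the 4 h sham arrays. Of these 13 markers, 3 were called higher and 0 lower, where 11.3% and 12.2% of all probe sets were. Their part in the Acta2 difference was not tested. Cfl1 read 9.39 to 9.79 at 0 h, 9.11 to 10.08 after PH and 9.44 to 10.06 after sham, so its arrays overlapped throughout. Its PH minus 0 h differences were 0.00, 0.07, 0.15 and 0.21 (± 0.09), and PH minus sham at 4 h was 0.23 (adjusted p = 0.0883).

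**Figure D4:**
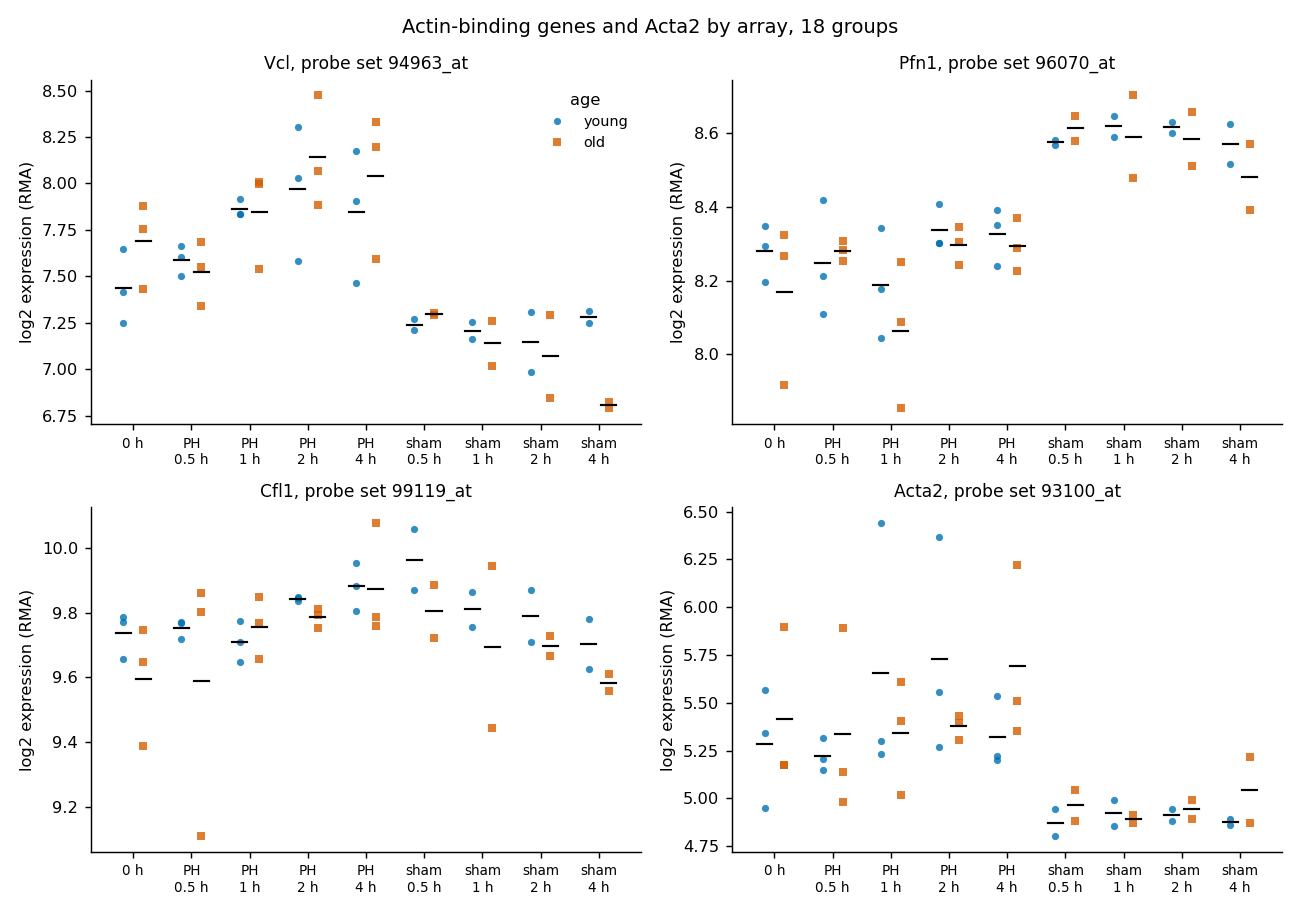
Log2 expression of Vcl (leading probe set), Pfn1, Cfl1 and Acta2 on each array, by operation and time; points are arrays coloured by age and bars are group means. The 16 sham arrays lie above all 0 h arrays for Pfn1 (8.39 to 8.70) and below all PH arrays for Vcl (6.79 to 7.31).

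No member was called different between the ages. Old minus young called 0 of 8 member probe sets at 0 h, over the PH groups and over the sham groups, by limma, and 0 in each at an unadjusted p under 0.05. The shares of all probe sets called were 0.145%, 9.76% and 0.765%. Actb differed by 0.33 at 0 h (adjusted p = 0.870), -0.50 ± 0.25 over the PH groups (0.207) and 0.14 over the sham groups. Actg1 differed by 0.39 (0.798), -0.15 (0.677) and -0.21. Some other actin genes passed the test between ages after PH. Of 28 genes of actin nucleation and turnover, 5 were higher and 0 lower, where 6.46% of all probe sets were higher and 9.76% were called in either direction. Among the 5 were Tmsb4x, which holds monomers in reserve (0.61, adjusted p = 0.00219 by limma), and Coro1a, a coat protein of filaments in leukocytes (0.27, 0.00259). Of 17 tropomyosin, myosin and crosslinker genes, 5 were higher and 0 lower, among them Tpm1 (0.29, 0.00982) and Pls3 (0.30, 0.0104). In the same arrays 8 of 10 macrophage markers were higher and 0 lower. Their mean level ran from 6.64 to 7.34 (median 6.89) in young and from 6.94 to 8.52 (median 7.41) in old liver after PH. Neutrophil markers had medians of 6.07 in young and 6.32 in old liver, and lymphocyte markers 6.16 and 6.33. Endothelial markers went the other way (6.51 and 6.42), and the arrays of both ages overlapped in each. The part of these cell types in the actin gene differences was not tested.

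The other genes of the pathway were read as lists, chosen with earlier results of these arrays known, with 1 probe set per gene. At 4 h after PH against sham, 8 of 28 genes of nucleation and turnover were higher and 0 lower, where 11.3% and 12.2% of all probe sets were. Their median difference was 0.11, against -0.02 over all 8251 genes. Endothelial markers moved in the same comparison, and their part in these differences, and in those of Actg1 and Vcl, was not tested. Their mean level ran from 6.48 to 6.56 on the 4 h PH arrays and from 6.25 to 6.44 on the 4 h sham arrays, without overlap, and 2 of 9 were called higher (Cdh5 and Eng) and 1 lower (Vwf). Among the nucleation and turnover genes called were Actr3, a subunit of the Arp2/3 complex that branches filaments (0.38, adjusted p = 0.0102 by limma), and Wdr1, which helps cofilin take filaments apart (0.34, 0.0131). Tropomyosins, myosins and crosslinkers were divided, with 3 of 17 higher and 3 lower. Tpm4, a tropomyosin that coats filaments, was higher (1.06, 2.67e-06), as was the crosslinker Actn1 (0.47, 0.00846), while Lasp1 (-0.36, 0.00319) and the crosslinker Flna (-0.34, 0.0159) were lower. Of 14 adhesion and membrane linkage genes, 1 was lower and 0 higher, and that was Zyx, zyxin, a protein of adhesions (-0.68, 2.51e-05). Vinculin, its neighbour at adhesions, was higher by 0.90. Both are differences from sham arrays, in which Zyx lay above 0 h, as given below. The filament building blocks themselves gave 1 call in 3 other actin isoforms, the probe set of Actc1, the cardiac actin (0.40, 0.000552). That probe set carries the suffix _f_at too, and how much of its signal came from other actin transcripts was not tested.

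The targets of the serum response factor were read in a list for each kind of coactivator, and the lists were not tested against each other. Of 12 targets through MRTF, 2 were higher and 3 lower at 4 h in PH minus sham (median -0.03), where 11.3% and 12.2% of all probe sets were. Cnn2, a calponin, was higher (0.62, adjusted p = 0.00523 by limma), as was Tagln, which binds filaments in smooth muscle (0.30, 0.0341), and Zyx and Flna were lower. These lower calls are against sham arrays. Against 0 h no MRTF target was called lower after PH at 1, 2 or 4 h, while some were called higher after sham, as given below. Of 10 targets through ternary complex factors, 5 were higher and 0 lower (median 0.81). Dusp6, a phosphatase of the ERK kinases, was higher by 1.84 (8.21e-05) and Egr1, an immediate early factor, by 1.61 (0.00925). Without the 2 arrays that stood apart, 8 of these 10 were called higher, where 2980 of 12422 probe sets were called in either direction. Those arrays belong to neither group compared, so the differences stayed the same and only the estimated spread changed. Among genes outside the actin system, 1 of 11 tubulins was higher (Tubb6, 0.71, 0.00432) and 1 lower (Tubb4b, -0.24, 0.0133). Of 7 keratins and other intermediate filament genes, 0 passed (1 at an unadjusted p under 0.05). Of 10 common reference genes, 2 were higher, Sdha (0.52) and Ywhaz (0.32), and Tfrc was lower (-0.48).

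**Figure D5:**
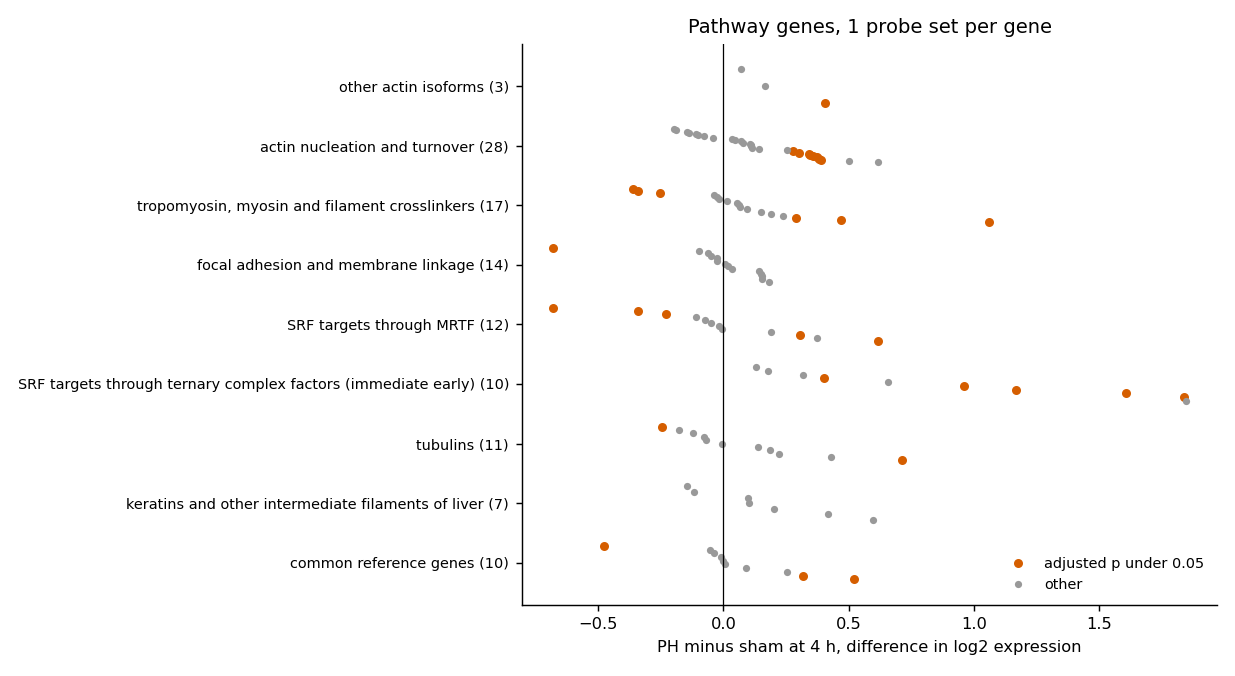
Log2 difference, PH minus sham at 4 h, mean of both ages, for each measured gene of the pathway and comparison lists; each point is a gene, and orange marks an adjusted p under 0.05 by limma. In the list of nucleation and turnover genes 8 of 28 points are orange and above 0, and the 1 called adhesion gene is Zyx at -0.68.

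At 0.5 h in PH minus sham the same lists gave other calls. In nucleation and turnover 7 of 28 were higher and 2 lower, where 13.8% and 15.4% of all probe sets were, led by the capping subunit Capza1 (0.65) and the muscle cofilin Cfl2 (0.55). Adhesion genes gave 4 higher and 2 lower of 14, with the membrane linker Rdx at 0.59 and Zyx at -0.58. MRTF targets gave 0 higher and 4 lower of 12. Tubulins gave 0 higher and 4 lower of 11, with Tubb2a at -0.98. These differences share the sham arrays, in which Zyx was above 0 h by 0.52, 0.73, 0.59 and 0.65 at 0.5, 1, 2 and 4 h, Cfl2 at -0.55, -0.56, -0.55 and -0.63, and Rdx at -0.55, -0.77, -0.57 and -0.92.

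Against 0 h after PH, calls among immediate early targets were most numerous at 1 h and those among keratins and tubulins at 2 h. At 0.5 h after PH 0 genes of the 9 pathway and comparison lists described passed, while 8 of 10 ternary complex factor targets, and 0 to 2 genes of each other list, had an unadjusted p under 0.05 by limma. At 1 h 9 of these 10 were higher and 0 lower (median 1.56), where 1.96% of all probe sets were higher, led by Fos (4.41) and Egr1 (2.24). At 2 h 6 were higher (median 1.04), where 5.74% of all probe sets were, and at 4 h 5 (median 0.84), where 11.5% were. MRTF targets gave 3, 2 and 1 of 12 higher and 0 lower at 1, 2 and 4 h, with the matricellular genes Ccn2 (0.96) and Ccn1 (0.79) at 1 h. Nucleation and turnover genes gave 3, 3 and 3 of 28 higher and 0, 1 and 1 lower, where 3.72%, 12.8% and 23.5% of all probe sets were called in either direction. Tpm4 was higher by 0.63, 1.37 and 1.40. At 4 h Lasp1 (-0.99), Pls3 (-0.73) and Rdx (-0.95) were lower and Myh9, a heavy chain of nonmuscle myosin, was higher (0.70). Keratins gave 0, 4 and 3 of 7 higher, with Krt8 at 1.37 at both 2 and 4 h and its partner Krt18 at 1.38 at 4 h. Tubulins gave 0, 5 and 4 of 11 higher and 0, 1 and 1 lower, with Tubb6 at 1.19 and 1.57. After sham, MRTF targets gave 4, 5, 3 and 4 of 12 higher and 0 lower at 0.5, 1, 2 and 4 h, where 12.9%, 19.9%, 16.4% and 17.0% of all probe sets were higher.

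The genes whose group means were most like each actin were found by Pearson's r over the 18 groups, as a description. All probe sets with 1 gene symbol were searched, members left out, so a gene could enter by any of its probe sets. For Actb these were Alb, the albumin gene (r = 0.881), Serpina1b (0.880), Apoa2 (0.864), Mgst1 (0.834) and Serpina1c (0.833). Their differences were small beside that of Actb. Alb had a mean of 13.87 at 0 h and 13.53 at 2 h after PH, and Mgst1 11.47 and 10.80. For Actg1 they were Il1a (0.913), Klf3 (0.907), Mapkapk2 (0.893), Myc (0.888) and Tnfaip6 (0.881). Myc, a growth factor-responsive transcription factor, had means of 4.43 at 0 h, 5.63, 5.98 and 5.62 at 1, 2 and 4 h after PH and 4.30 after sham. Il1a, a cytokine gene, had 5.93, 6.78, 6.73, 6.58 and 5.99 in the same order. All of these means share the 46 arrays.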

How the data were processed

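Liver RNA on 46 arrays of the Affymetrix Murine Genome U74 version 2 design was analysed. The deposited log2 values were made with RMA, per the submitters' processing notes. RMA corrects background, scales all arrays to a common distribution and gives 1 value per probe set; which arrays were normalised together is not given in the sources used here. Read depth does not apply to arrays, and precision is limited by their number.

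Of 12488 probe sets, 66 controls were left out of the tests. The platform annotation gave 10833 of the other 12422 probe sets 1 symbol, 396 several and 1193 none. A linear model with 18 group means was fitted (limma 3.58.1, R 4.3.3, lmFit and eBayes, checked on simulated data), with Benjamini-Hochberg adjustment over 12422 probe sets and a threshold of 0.05. Differences weight both ages equally. The leading probe set of a gene has the highest mean over all arrays. The members and the gene and marker lists were chosen with earlier results of these data known. Genes named from a list are up to 2 per direction with the smallest adjusted p among those past the threshold, and for PH minus 0 h up to 2 with the largest difference. The remaining named genes are the members, the beta-actin controls and the 5 genes closest to each actin in group means. Alternatives covered array scaling, dim probe sets, variance settings, the groups in the fit, replicate block, array weights, spike-in and Gapdh covariates, single arrays and second probe sets. Leaving out both arrays that stood apart together, the correlations within operations and 3 further correlated pairs were added after the data were seen. One pathway list is not reported here.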

Additional observations from a re-analysis of the deposited data

How the results depend on the processing

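The 168 results for the member probe sets (8 probe sets in 21 comparisons) include the comparisons described without a test, which have no call. A tested result counted as kept when its call, and the direction where there was one, stayed the same. An untested one counted as kept when its value moved by less than the residual SD of its probe set. Centring each array on its median kept 166 of the 168. Leaving out the dimmest 25% of probe sets, trend and robust variances and the Gapdh covariate kept 167 each. Leaving out both arrays that stood apart kept 165, the compared groups alone 161, and array weights and the spike-in covariate 156 each. The spike-in covariate moved Actb in PH minus 0 h to -0.66 at 1 h and -1.22 at 2 h. In PH minus sham it moved Actb to 0.19 at 1 h, a reversed sign, to -0.77 at 2 h and to -0.76 at 4 h (adjusted p = 0.0421 by limma, now past the threshold). The p-values of Actb in this section are not independent of the choice of the genes. In place of the leading Actb probe set, its second probe set gave -1.37 at 0.5 h in sham minus 0 h (adjusted p = 0.0502, no longer called) and -2.71 at 2 h in PH minus sham. In place of the leading Vcl probe set, the dimmer one gave -0.12 and -0.0497 at 1 and 2 h in PH minus 0 h and -0.0497 at 1 h in PH minus sham, each with the sign reversed. A fit of the compared groups alone called Actg1 at 1 h (0.54, adjusted p = 0.0199) and Actb at 2 h (-0.74, 0.0307) and 4 h (-0.75, 0.0140) in sham minus 0 h. Array weights called Actg1 at 0.5 h in PH minus sham (0.83, 0.0221). A further 46 uncalled or untested values changed sign under these alternatives, and 93 with 1 array left out. Causes of these changes were not tested.

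With 1 array left out, Actb in sham minus 0 h ran from -1.43 to -1.0 at 0.5 h and from -1.38 to -0.88 at 1 h, and Actg1 in PH minus sham at 0.5 h from 0.32 to 1.06. Arrays that carry the same replicate number in different groups shared no deviation on average (mean r 0.006, against -0.00287 for other numbers). In 13 of 153 pairs of groups every same-numbered pair exceeded 0.1. The labels do not say what the numbers mean, and an average cannot show whether some of these arrays shared a batch. With the replicate block, Actb in sham minus 0 h was -1.37 at 0.5 h (adjusted p = 0.0136) and -1.29 at 1 h (0.0132), and Actg1 in PH minus sham at 4 h was 2.23 (5.98e-06). The block changed 2 of the 168 results: Pfn1 at 4 h in PH minus sham was no longer called (-0.20, 0.0703), and the second Actb probe set at 0.5 h in sham minus 0 h was (-1.57, 0.0238).

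Group sizes of 2 and 3 arrays limit these comparisons, and Actb varied widely between arrays of a group (residual SD 0.67 and 0.86 for its probe sets, against 0.12 for Pfn1).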
